A study of Rattus norvegicus with 4 samples.

Results

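The microphthalmia/TFE (MiT/TFE) family of transcription factors comprises Mitf, Tfeb, Tfe3 and Tfec, and was examined in 2 clones of PC12, a cell line isolated from a rat pheochromocytoma, a tumor of the chromaffin cells of the adrenal medulla. All 4 genes were found by name among the 25810 genes of the count files. Mitf had been picked because no read fell on it in one clone, and the other 3 because they are its family, so Mitf was chosen by its own read counts in these libraries, which are given as a description with no test. The clone wtPC12, described as wild type, has low levels of the transcription repressor REST, while hrPC12, previously called PC12-27, has high levels. Neither clone is labelled with a transgene, a deletion or a drug treatment. RNA of each clone was sequenced in 2 libraries. Since a single clone stands for each level of REST, effects of REST and of whatever else sets these clones apart cannot be told apart. The labels do not say that the libraries of a clone came from separate cultures, so the p-values measure the spread between these libraries, which may be technical.

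The 4 proteins are basic helix-loop-helix leucine zipper factors that bind DNA as homodimers or as dimers with one another, at E-box sequences. Tfeb and Tfe3 are best known as activators of genes of lysosomes and autophagy, and are held in the cytosol of well-fed cells by phosphorylation through mTORC1, recruited by the Rag GTPases and the folliculin complex. Mitf is the master regulator of melanocytes and is needed in osteoclasts and mast cells, and Tfec is expressed mainly in macrophages. Because these factors are controlled largely by phosphorylation and movement to the nucleus, the level of their mRNA says little of their activity, which was not measured here.

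The libraries held 20975027 to 27246502 reads on genes. A normalized count is a read count divided by the library's effective size (total times the TMM factor of edgeR) and multiplied by the mean effective size, and 3 reads correspond to 2.54 to 3.49 normalized counts. Genes are said to have risen or fallen in hrPC12 when the Benjamini-Hochberg adjusted p of edgeR's quasi-likelihood test was under 0.01, and are called differentially expressed (DE) when the log2 FC (hrPC12 over wtPC12) was also past 2. Of 13726 tested genes, 5.94% rose and 7.14% fell (13.1% in all), and 4.84% and 5.46% were DE genes higher and lower in hrPC12. At a threshold of 0.05, 16.1% were higher and 16.3% lower (32.4% in all). Without wtPC12 replicate 2, no gene passed 0.01 in edgeR, with a lowest adjusted p of 0.0134 and 6798 genes at an unadjusted p under 0.05, so no rise or fall given here was called in that fit, which has a lone wtPC12 library. With any 1 library left out the log2 FC ran from −4.31 to −4.02 for Atp6v1b2 and from −2.43 to −2.22 for Ulk1, both described below. DESeq2 was not run without a library. Rest itself had 43.0 and 132 normalized counts in wtPC12 and 964 and 915 in hrPC12 (log2 FC 3.42 ± 0.57 (SE), edgeR adjusted p = 0.0115), so the labels and the reads went the same way although the test did not pass. Chromaffin markers were abundant in wtPC12, where 8 genes summed to 816367 to 954988 normalized counts, and far lower in hrPC12, at 47056 to 51060. Fibroblast markers summed to 16291 to 18060 in wtPC12 and 93263 to 97805 in hrPC12, with each of the 5 above 3 reads in at least 1 library of both clones. Thy1, named after its values were seen, made up most of the wtPC12 sums (17929 and 16186) and was lower in hrPC12 (8532 and 8675). Col3a1 made up most of the hrPC12 sums, with 83801 and 88143 against 104 and 85.5 in wtPC12. Col1a1, Col1a2 and Pdgfrb were also higher in hrPC12. Schwann cell markers summed to 218 and 262 in wtPC12 and 301 and 310 in hrPC12. On the longer lists of these cell types, 9 of 14 tested chromaffin genes fell, 8 of 10 fibroblast and muscle-like genes rose, and 1 of 3 Schwann and glial genes fell. Of the 8 that rose, Vim, Fn1 and Myog had at most 3 reads in each wtPC12 library (Fn1 and Myog were named after their values were seen). Col1a1 (1 and 7 reads) and Col1a2 (5 and 0 reads) had wtPC12 means of 4.19 and 2.91 normalized counts, under the 5 of the filter. All of these genes passed the filter through hrPC12 alone, so they had to come out higher. The part of these differences in the values below was not tested.

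Mitf had 0 reads in both wtPC12 libraries and 1601 and 1300 reads in hrPC12 replicates 1 and 2. These are 1355 and 1315 normalized counts, a mean of 1335 ± 28.2 (SD, n = 2). Every hrPC12 read count thus lies far above the wtPC12 libraries, where 0 reads allow for up to 3 reads. Set against 3 reads in each wtPC12 library, Mitf was at least 406-fold higher in hrPC12. In these bulk libraries, more cells with the transcript and more transcript per cell cannot be told apart. Of the 18416 genes with a read, 5.42% (999 genes) shared the pattern that chose Mitf, reads in both hrPC12 libraries and none in wtPC12, and another 372 had it the other way round.

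Tfec showed the same pattern at a much lower depth, with 0 reads in both wtPC12 libraries and 25 in each library of hrPC12. Its normalized counts were 21.2 and 25.3 in hrPC12, a mean of 23.2 ± 2.92 (SD, n = 2). Neither hrPC12 library overlapped with wtPC12, and Tfec was at least 7.06-fold higher against 3 reads in each wtPC12 library. The filter of the main test keeps only genes read in both clones and therefore left Tfec out. When every gene with a read was tested, Tfec had an adjusted p of 0.00335 by edgeR, and with edgeR's filterByExpr 0.00822. A gene that enters a test through its reads in hrPC12 alone had to differ, so these values are given as a description.

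Tfeb was read in every library, with 962 and 989 normalized counts in wtPC12 and 468 and 496 in hrPC12. Both hrPC12 libraries were lower than both wtPC12 libraries, as in 35.6% of all tested genes. The means were 975 ± 19.0 and 482 ± 19.6 (SD, n = 2 per clone), a 2.02-fold higher level in wtPC12 (log2 FC −1.02 ± 0.21 (SE), edgeR adjusted p = 0.0203). The difference was many times the spread between libraries but missed the threshold of 0.01. It met 0.05, as did the 16.3% of tested genes that were lower in hrPC12. The adjusted p was 0.000912 with DESeq2, and rose to 0.146 without hrPC12 replicate 1 and 0.0821 without hrPC12 replicate 2.

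Tfe3 lay on the same side as Tfeb, with 1688 and 1639 normalized counts in wtPC12 and 999 and 1089 in hrPC12. Again no hrPC12 library reached a wtPC12 library. The means were 1663 ± 34.6 and 1044 ± 63.5 (SD, n = 2 per clone), 1.59-fold higher in wtPC12 (log2 FC −0.67 ± 0.18 (SE), edgeR adjusted p = 0.0460). This missed 0.01 and met 0.05, but not with RLE factors (adjusted p = 0.0517 by edgeR) or with every gene that had a read (0.0587). Leaving out 1 library gave adjusted p between 0.0496 and 0.357, the highest without hrPC12 replicate 1, and a scaling by library totals alone gave 0.0832. For both genes the log2 FC was negative under every scaling, filter and tool tried and without any single library.

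**Figure D1:**
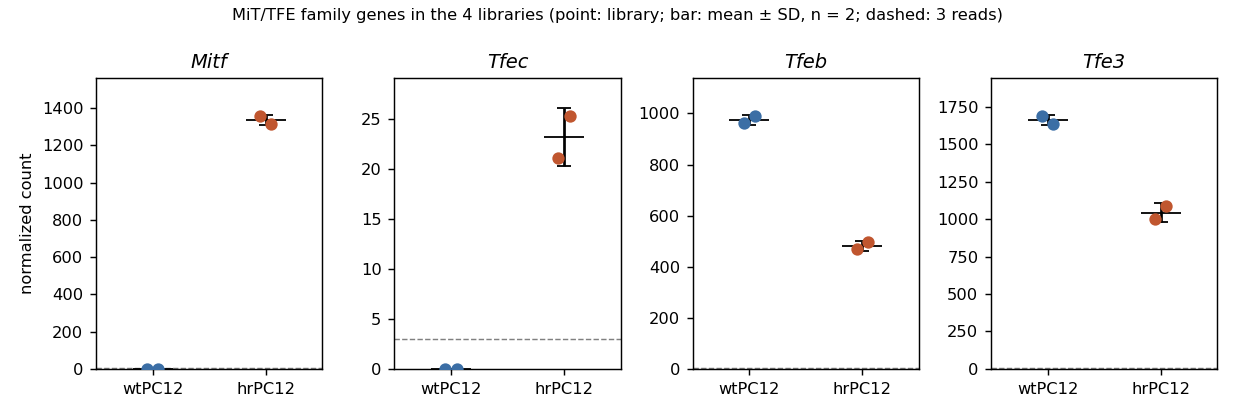
Normalized counts of Mitf, Tfec, Tfeb and Tfe3, 1 point per library, with the mean ± SD (n = 2) of wtPC12 (blue) and hrPC12 (orange) and a dashed line at 3 reads; the scale of each panel is its own. Mitf and Tfec are at 0 in both wtPC12 libraries, whereas Tfeb and Tfe3 are lower in hrPC12 than in wtPC12 without overlap.

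The members whose reads were absent from wtPC12 sit on the same rat chromosome. To show what precedes their start sites, the 250 bases upstream of each are given from RefSeq (build GRCr8; the reads had been aligned to rn4, whose coordinates are not used), written along the gene's strand:
Mitf (chr4:131965490-131965739, plus strand): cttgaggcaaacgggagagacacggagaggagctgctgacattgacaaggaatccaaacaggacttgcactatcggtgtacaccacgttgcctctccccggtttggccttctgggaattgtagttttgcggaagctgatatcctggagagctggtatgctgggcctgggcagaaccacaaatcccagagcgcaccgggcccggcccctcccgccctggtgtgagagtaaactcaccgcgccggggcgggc
Tfec (chr4:46146201-46146450, minus strand): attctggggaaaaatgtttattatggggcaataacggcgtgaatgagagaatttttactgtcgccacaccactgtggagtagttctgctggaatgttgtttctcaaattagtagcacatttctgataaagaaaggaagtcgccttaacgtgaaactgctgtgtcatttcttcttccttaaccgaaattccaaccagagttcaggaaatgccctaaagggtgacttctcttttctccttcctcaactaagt
Both windows are in lower case throughout because they hold none of the motifs searched on both strands: the E-boxes CACGTG and CATGTG, their longer forms TCACGTGA (the CLEAR element of lysosomal genes) and TCATGTG (the M-box core of pigment genes), the cAMP response element TGACGTCA, and 2 parts of the RE-1 sequence bound by REST, TTCAGCACC and GGACAGC, which were added after the values were seen. CACGTG lies within TCACGTGA and CATGTG within TCATGTG. The upstream windows of Tfeb and Tfe3 hold none of them either. Of all 27457 rat windows, 5.79% hold CACGTG, 11.7% CATGTG, 0.743% TCACGTGA, 2.99% TCATGTG, 1.7% TGACGTCA, 0.317% TTCAGCACC and 5.34% GGACAGC. The windows of Mitf, Tfeb and Tfe3 have 60.0%, 59.6% and 59.6% GC and that of Tfec 40.8%, against a median of 52.0% over all windows. Mitf has several promoters, and only the start given for the gene by RefSeq was examined.

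The genes next to Mitf and Tfec in the order of GRCr8 were read as well. On one side of Mitf, Arl6ip5, which encodes a membrane protein of the endoplasmic reticulum, rose from 1724 and 1332 to 4817 and 3951 normalized counts (log2 FC 1.52, edgeR adjusted p = 0.00758). Frmd4b, a scaffold protein gene directly beside Mitf, was a DE gene, at 5.82 and 5.15 in wtPC12 and 157 and 117 in hrPC12. On the other side, Eif4e3, a cap-binding protein gene, fell (480 and 534 against 166 and 152), and Gpr27, an orphan receptor gene, was a DE gene lower in hrPC12 (307 and 433 against 25.4 and 33.4). Foxp1, the next neighbour of Mitf on that side, was higher in hrPC12 (54.7 and 184 against 286 and 260) but did not pass (edgeR adjusted p = 0.176). Lmod3, on the side of Frmd4b, had 0 reads in both wtPC12 libraries and 4 and 1 reads in hrPC12. The genes around Mitf therefore went in both directions, with Arl6ip5, Frmd4b, Foxp1 and Lmod3 higher in hrPC12 and Eif4e3 and Gpr27 lower.

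Around Tfec, 6 genes on each side were taken after the values were seen. Ppp1r3a, Foxp2, Mdfic, Cav2 and Met shared with Tfec the absence of any wtPC12 read. Cav1, which encodes the main coat protein of caveolae, had 2 reads in each wtPC12 library against 1848 and 1951 normalized counts in hrPC12, and was at least 577-fold higher against the floor of 3 reads per library. Met, the receptor of hepatocyte growth factor and a proposed target of Mitf, had 0 reads in wtPC12 and 265 and 250 normalized counts in hrPC12, at least 78.3-fold higher. Other genes of the stretch were read in wtPC12. Tes, the neighbour of Tfec on the side of Cav1, had 928 and 890 normalized counts there and 1657 and 1899 in hrPC12 (edgeR adjusted p = 0.0195). None of the 3 nearest genes on either side of Tfeb or of Tfe3 passed 0.01, as Tfeb and Tfe3 did not. All those around Tfe3 were lower in both hrPC12 libraries than in both wtPC12 libraries, like Tfe3 and 35.6% of all tested genes. Gripap1, directly beside Tfe3, had a log2 FC of −0.98 (edgeR adjusted p = 0.0120). Around Tfeb, Frs3 and Tomm6 were lower in hrPC12 and Foxp4 overlapped.

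**Figure D2:**
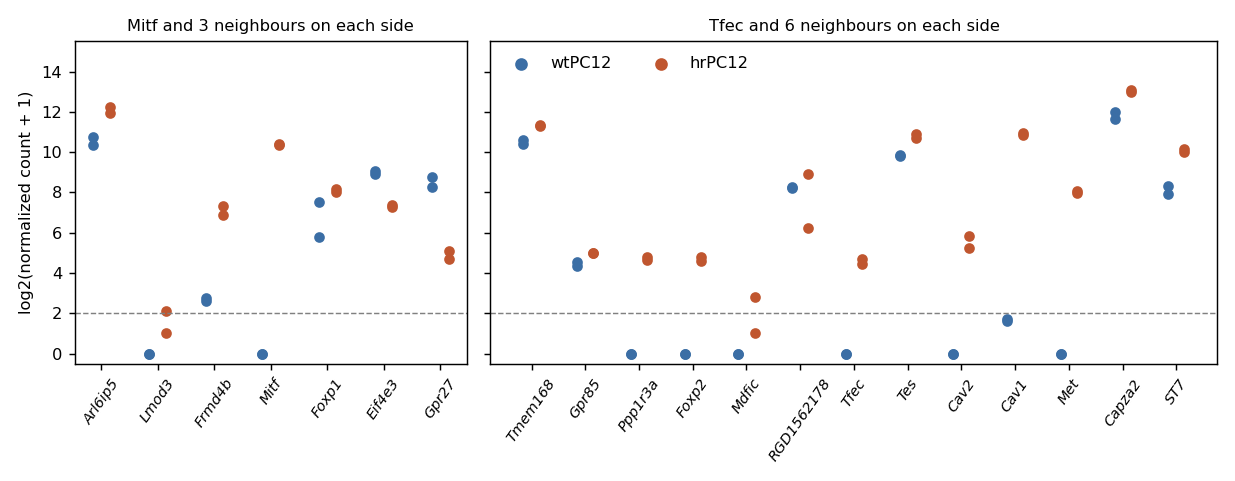
Values of Mitf with 3 genes on each side and of Tfec with 6 on each side, in the order of GRCr8, as log2(normalized count + 1) with 1 point per library (blue wtPC12, orange hrPC12) and a dashed line at 3 reads. Around Mitf, some genes are higher and some lower in hrPC12. Mitf and Lmod3 in the first panel, and Ppp1r3a, Foxp2, Mdfic, Tfec, Cav2 and Met in the other, have both wtPC12 points at 0.

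The genes that hold the family in the cytosol, or release it, formed a list of 40 nutrient-sensing regulators, of which 34 were in the files and all 34 of those were tested. Only Rragc passed 0.01, and none fell, where 5.94% and 7.14% of all tested genes rose and fell. DESeq2 gave 4 that rose and 4 that fell, beside 1885 and 1928 of all 13726 genes. The edgeR settings gave 0 to 3 that fell. Rragc, a Rag GTPase that brings Tfeb and Tfe3 to mTORC1, rose from 1990 and 1780 to 3872 and 3964 normalized counts (log2 FC 1.06 ± 0.17 (SE), edgeR adjusted p = 0.00984). This call is lost, with no gene of the list rising, when the legacy option is off and without either wtPC12 library or hrPC12 replicate 1. Its paralog Rragd, a known target of the family, had 546 and 970 in wtPC12 and 1592 and 1670 in hrPC12, with no overlap but an adjusted p of 0.0527 by edgeR and 0.00966 by DESeq2. Flcn, the folliculin gene, had 1686 and 1558 in wtPC12 and 1021 and 1125 in hrPC12 (log2 FC −0.60, edgeR adjusted p = 0.0654). Fnip2, listed as RGD1562174, encodes a partner of folliculin and overlapped between the clones, with 372 and 1027 against 990 and 933. Mcoln1, the lysosomal calcium channel whose current releases Tfeb through calcineurin, overlapped as well (2093 and 1817 against 1796 and 1989). At a threshold of 0.05, 2 regulators were higher and 5 lower, where 16.1% and 16.3% of all tested genes were. These regulators are named here after their values were seen. Besides Rragc, the higher gene was Ppp3ca, a catalytic subunit of calcineurin, which removes phosphate from Tfeb, with 211 and 374 normalized counts in wtPC12 and 1288 and 711 in hrPC12. The lower genes were Ywhah and Ywhab, 14-3-3 proteins that hold phosphorylated Tfeb and Tfe3 in the cytosol, Mapk3, a kinase of Tfeb and Mitf, Map4k3, a kinase of amino acid sensing, and Tusc4 (Nprl2), a subunit of the complex that silences the Rag GTPases. Ywhah had 25974 and 21265 in wtPC12 and 11025 and 11789 in hrPC12, and the log2 FC of the 5 ran from −1.33 to −0.68. The median log2 FC of the list was 0.13 beside 0.06 over all tested genes.

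The E-boxes of the family are shared with other basic helix-loop-helix factors, of which 18 were tested and none passed 0.01 or 0.05. Myc, the growth-promoting oncogene, had 315 and 418 normalized counts in wtPC12 and 582 and 621 in hrPC12 (adjusted p = 0.0913). Usf1 and Usf2, which are expressed in most cells, had log2 FC of −0.47 and −0.39 (edgeR adjusted p = 0.112 and 0.130), with the hrPC12 libraries lower. Max, the partner of Myc, overlapped between the clones. Mycn, a relative of Myc named after its values were seen, had 13 and 21 reads in wtPC12 and 0 in hrPC12.

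Among genes proposed as targets of Mitf, Gpnmb, a membrane glycoprotein of melanosomes and lysosomes, was a DE gene. It had 73.3 and 41.2 normalized counts in wtPC12 and 2411 and 2469 in hrPC12. The hrPC12 libraries agreed closely and lay far above wtPC12, 42.7-fold on average (log2 FC 5.42 ± 0.36 (SE), edgeR adjusted p = 0.000851). Its upstream window is shown because it carries the M-box core, read on the opposite strand and set in capitals, 22 to 16 bases before the start:
Gpnmb (chr4:79340878-79341127, plus strand): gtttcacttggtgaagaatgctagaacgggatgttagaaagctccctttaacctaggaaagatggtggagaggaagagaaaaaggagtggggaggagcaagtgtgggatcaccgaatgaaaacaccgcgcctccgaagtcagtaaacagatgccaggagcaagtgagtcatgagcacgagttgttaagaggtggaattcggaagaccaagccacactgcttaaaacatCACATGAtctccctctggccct
Bcl2, the survival factor and a Mitf target in melanocytes, had 8.14 and 18.5 normalized counts in wtPC12 and 98.2 and 102 in hrPC12, with an adjusted p of 0.0133 by edgeR, which missed 0.01, and 0.000269 by DESeq2. Of the 15 tested genes of the list of other proposed Mitf targets, 1 rose, Gpnmb, and none fell, where 5.94% and 7.14% of all tested genes did. With DESeq2 4 rose and none fell, beside 1885 and 1928 of all 13726 genes. The median log2 FC was −0.24, and its sign turned to 0.15 without wtPC12 replicate 1, 0.13 without wtPC12 replicate 2 and 0.14 with every gene that had a read.

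Of the 23 pigment cell genes in the files, 4 had no read in any library. Tyr, Tyrp1 and Dct, the enzymes of melanin synthesis, and Sox10, an activator of Mitf in melanocytes, had 0 reads in all 4 libraries. Mlana, a melanosome protein, had 1 read in all, in hrPC12 replicate 2, and Pax3 had 3 and 2 reads in hrPC12. Of the 7 melanocyte markers, 6 stayed at or under 3 reads in every library and the exception was Pmel. Pmel, the fibril protein of melanosomes, fell from 2457 and 1628 to 619 and 572 normalized counts (log2 FC −1.78 ± 0.27 (SE), edgeR adjusted p = 0.00893). The Pmel locus overlaps Cdk2 and Dgka in RefSeq and the counting is not known to have used strand, so part of its reads may belong to these. Trpm1, a melanocyte channel gene and Mitf target named after its values were seen, had 1 and 0 reads in wtPC12 and 23 and 10 in hrPC12. Slc24a5, an ion exchanger of melanosomes also named after its values were seen, had 2288 and 1447 normalized counts in wtPC12 and 1194 and 1357 in hrPC12 (edgeR adjusted p = 0.178), and overlaps Myef2 in RefSeq.

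Of 9 tested pigment cell genes, 3 fell and 1 rose, where 7.14% and 5.94% of all tested genes did. The median log2 FC was −1.78. Rab27a, which tethers melanosomes and also secretory granules, was a DE gene with 2664 and 2965 normalized counts in wtPC12 and 572 and 566 in hrPC12. Mcam, an adhesion molecule of melanoma and vascular cells, was 10.2-fold higher in wtPC12 (log2 FC −3.35). Zeb2, a repressor active in melanoblasts and in mesenchymal cells, was the gene that rose, with 38.4 and 78.3 against 580 and 569 (log2 FC 3.29 ± 0.42 (SE), edgeR adjusted p = 0.00543).

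Genes of osteoclasts and macrophages, where Mitf acts together with Tfe3, included 8 that were tested. Of these, 4 rose and none fell. Mpeg1, Tnfrsf11b and Spi1 had at most 3 reads in each wtPC12 library. Oscar, named after its values were seen, had a wtPC12 mean of 4.32 normalized counts, under the 5 of the filter. These genes passed the filter through hrPC12 alone, so they had to come out higher. Of the 21 genes of the list in the files, 13 were not tested. Csf1, the growth factor of macrophages rather than a gene of the macrophage itself, had 145 and 164 normalized counts in wtPC12 and 2260 and 2596 in hrPC12. Tnfrsf11b, osteoprotegerin, a secreted inhibitor of osteoclast formation, was at least 157-fold higher in hrPC12. Mpeg1, a perforin-like protein of macrophages, had 1 and 0 reads in wtPC12 and 1602 and 1413 normalized counts in hrPC12, and Cd14, a coreceptor of lipopolysaccharide, rose from 11.6 and 9.27 to 346 and 412. The defining markers of blood cells were at or near 0, with 1 read of Ptprc and 1 of Tyrobp in all libraries together and 4, 2, 1 and 2 reads of Csf1r, while Cd68, a macrophage marker, had 20, 28, 89 and 86 reads. The 8 macrophage or osteoclast markers in the files summed to 44.2 and 47.4 normalized counts in wtPC12 and 434 and 512 in hrPC12, of which Cd14 made up most. The osteoclast genes Ctsk, a collagen-degrading protease, and Tcirg1, a subunit of the proton pump, did not pass (adjusted p = 0.424 and 0.975), and Atp6v0d2 had 0 reads in all libraries.

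In mast cells Mitf drives Kit and the granule proteases. The 7 mast cell markers summed to 25.6 and 28.8 normalized counts in wtPC12 and 4.23 and 2.02 in hrPC12. Kit had 2, 1, 4 and 2 reads in the 4 libraries. Tpsab1, a tryptase gene named after its values were seen, was read only in wtPC12, with 20 and 26 reads, the opposite of Mitf. Gata2, a factor of mast cells and of sympathetic precursors, was the one of 5 tested genes that fell (14672 and 16464 against 3581 and 4073 normalized counts).

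**Figure D3:**
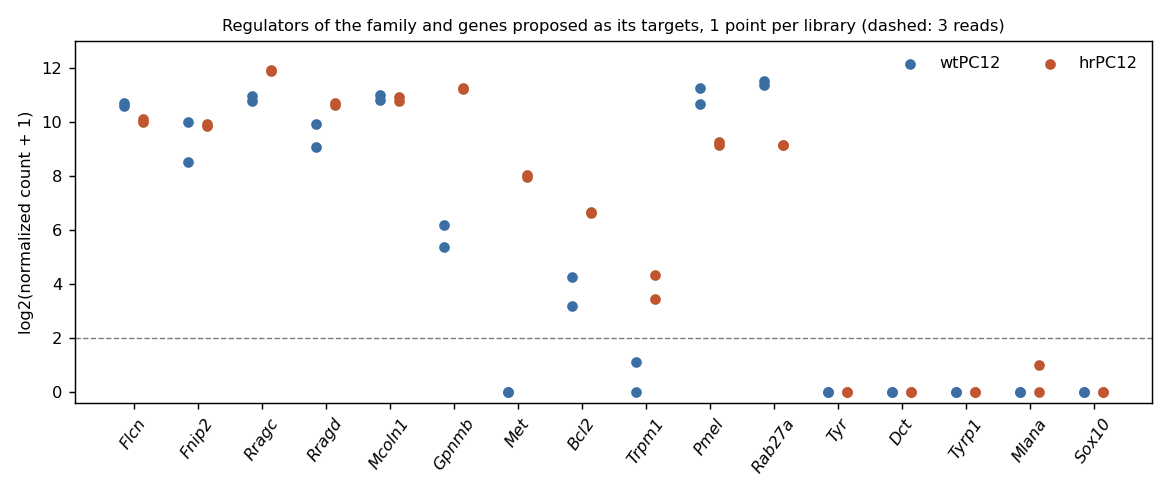
Regulators and proposed targets of the family as log2(normalized count + 1), 1 point per library (blue wtPC12, orange hrPC12), with a dashed line at 3 reads. Gpnmb, Met and Bcl2 are higher in hrPC12, Pmel and Rab27a lower, and Tyr, Dct, Tyrp1 and Sox10 are at 0 in every library.

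Lysosome and autophagy genes, the common programme of Tfeb, Tfe3 and Mitf, were split into 4 lists of 155 genes in all, of which 128 were in the files and 116 were tested. Of these 5 rose and 7 fell, where 5.94% and 7.14% of all tested genes did. The median log2 FC was −0.04 beside 0.06 over all tested genes. At a threshold of 0.05, 22 were higher and 17 lower, where 16.1% and 16.3% of all tested genes were. The hrPC12 libraries lay above wtPC12 in 41 genes, below in 48 and overlapped in 27, while 37.9% of all tested genes lay above and 35.6% below. The lists went in both directions, as did all tested genes. With DESeq2 21 rose and 13 fell, where 1885 and 1928 of all 13726 genes did. Of the 22 higher at 0.05, 11 had a normalized count in hrPC12 replicate 1 more than 1.5 times that in replicate 2, as had 737 of the 2215 tested genes higher at 0.05. None of the 17 lower did, and 166 of 2234 over all tested genes. Without hrPC12 replicate 1, 11 were higher and 8 lower at 0.05, and over all tested genes 1551 and 1433, also fewer than with it. The members themselves did not share this difference between the libraries, with ratios of 1.03 for Mitf, 0.84 for Tfec, 0.94 for Tfeb and 0.92 for Tfe3.

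The proton pump that acidifies lysosomes, the V-ATPase, had 16 tested subunits. None rose and 2 fell, where 5.94% and 7.14% of all tested genes did. Those that fell were Atp6v1b2, the B subunit of most tissues and abundant in brain, and Atp6v1g2, a brain form of the G subunit. Atp6v1b2 fell from 59548 and 47720 to 2792 and 3219 normalized counts (log2 FC −4.16 ± 0.25 (SE), edgeR adjusted p = 0.000686). Atp6v1g2 had 409 and 355 against 40.6 and 35.4. The median log2 FC of the subunits was −0.23.

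Among 34 tested lysosomal hydrolases 2 rose and 1 fell, where 5.94% and 7.14% of all tested genes did. The median log2 FC was 0.18. Asah1, acid ceramidase, had 885 and 775 normalized counts in wtPC12 and 4747 and 2615 in hrPC12, so that it rose (log2 FC 2.15, edgeR adjusted p = 0.00946) although the hrPC12 libraries differed 1.82-fold. Ppt1 and Ppt2, which encode lysosomal thioesterases, went in opposite directions. Ppt1 went from 843 and 746 up to 2154 and 1891, and Ppt2 from 2243 and 2070 down to 850 and 922. The cathepsins Ctsd and Ctsb, the most familiar lysosomal proteases, did not pass (log2 FC −0.73 and 0.18, edgeR adjusted p = 0.0567 and 0.571). Cpvl, a carboxypeptidase gene of macrophages named after its values were seen, was not tested because it had 0 reads in wtPC12, and had 582 and 625 normalized counts in hrPC12.

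Lysosomal membrane proteins, with 28 tested, gave 1 that rose, Gpnmb, and 2 that fell, where 5.94% and 7.14% of all tested genes did. Cln3, a protein lost in juvenile Batten disease, fell from 1011 and 808 to 249.7 and 247.9 normalized counts, and Slc11a2, an iron transporter, from 3024 and 2920 to 1178 and 1152. Cln3 overlaps Apobr in RefSeq. Lamp2, a main protein of the lysosomal membrane, had 3506 and 3228 in wtPC12 and 4787 and 5075 in hrPC12, with no overlap but an adjusted p of 0.0538.

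Of 38 tested autophagy genes 2 rose and 2 fell, where 5.94% and 7.14% of all tested genes did. Ulk1, the kinase that starts autophagy, was a DE gene and fell from 5968 and 6734 to 1244 and 1316 normalized counts (log2 FC −2.31 ± 0.17 (SE), edgeR adjusted p = 0.00115). Atg9a, a lipid scramblase of the forming autophagosome, fell (log2 FC −1.21), while its paralog Atg9b rose from 25.6 and 21.6 to 266 and 151. Atg3, which joins lipid to the Atg8 proteins, rose from 1757 and 1653 to 4251 and 4444.

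**Figure D4:**
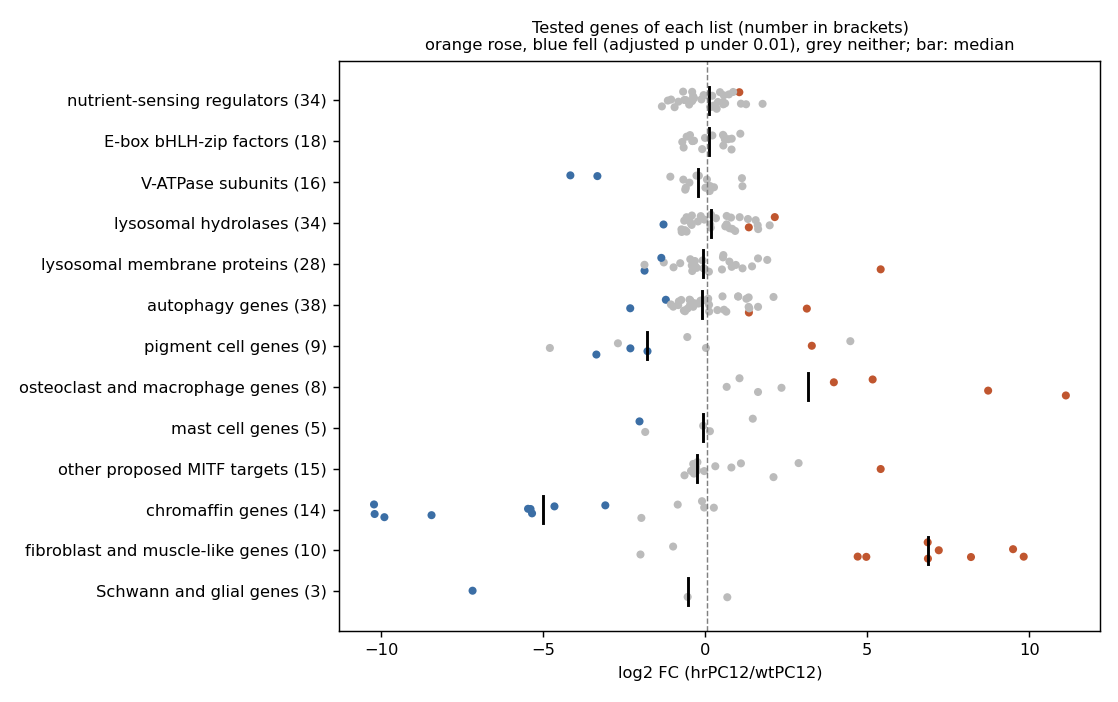
log2 FC of every tested gene of the 13 lists, 1 point per gene, with a bar at the median of each list and a dashed line at the median of all tested genes. Points of the 4 lysosome and autophagy lists lie on both sides of the line, whereas chromaffin genes lie mostly on the left and fibroblast genes mostly on the right.

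The upstream windows of the lysosome and autophagy genes were searched for the motifs of the family in the reference sequence, which says nothing of the clones. TCACGTGA was found in 12 of 126 windows (9.52%) and TCATGTG in 13 (10.3%), beside 0.743% and 2.99% of all windows. Membrane proteins held them most often, in 6 and 8 of 28 windows. Stretches around the element, in capitals, are shown for the list genes that carry it and passed 0.01 or 0.05, and for Ctsd, named above (Slc36a1 and Igf2r were named after their values were seen):
Atg3 (chr11:69159281-69159307, minus strand): gagattcgagTCACGTGAggcctagga
Cln3 (chr1:190597951-190597978, minus strand): acgggtactgTCACGTGAtccccaacct
Slc36a1 (chr10:39825011-39825034, plus strand): ggagctagcgTCACGTGAcggggc
Igf2r (chr1:50526782-50526809, plus strand): ccgactccggTCACGTGAcgctttgggg
Ctsd (chr1:206968822-206968842, minus strand): cgcccgcgtcTCACGTGAccc
These genes went in both directions. Atg3 rose and Cln3 fell with the same 8 bases close to their starts, Slc36a1, a lysosomal amino acid transporter, had a log2 FC of −1.87 (adjusted p = 0.0189) and Igf2r, the mannose 6-phosphate receptor, 1.45 (adjusted p = 0.0469). Igf2r carries the element at 2 places, of which the one nearer the start is shown. Of the 10 tested list genes with TCACGTGA 1 rose and 1 fell. Of the 12 with TCATGTG 1 rose, Gpnmb, and none fell. Over all tested genes with a window, 6.47% rose and 7.53% fell, and of the 97 with TCACGTGA 4.12% rose and 4.12% fell. Of the 132 with TCATGTG, 6.82% rose and 6.82% fell.

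**Figure D5:**
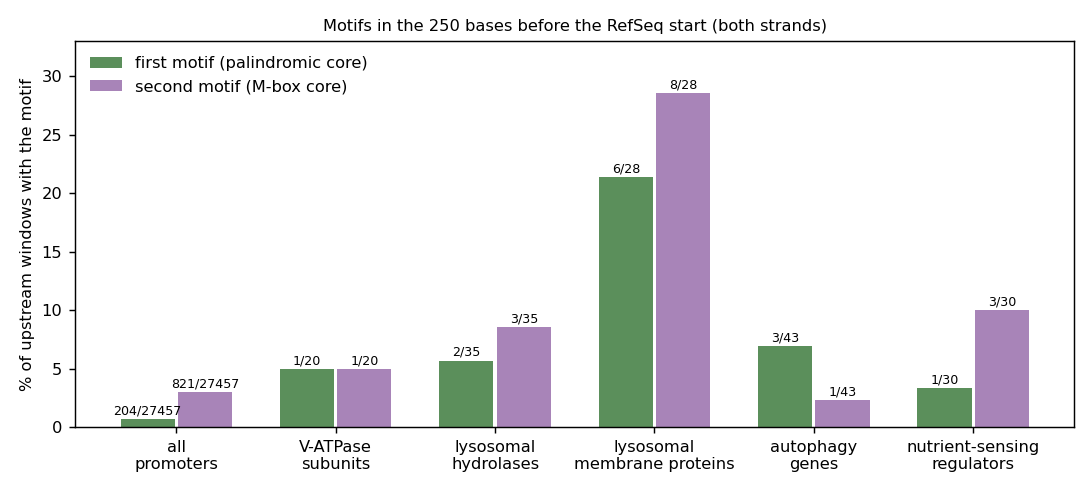
Percentage of upstream windows (250 bases before the RefSeq start, both strands) that hold the palindromic CLEAR element (green) or the M-box core (purple), with the number of windows above each bar. Lysosomal membrane proteins have the highest shares, 21.4% and 28.6%, and all promoters 0.743% and 2.99%.

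The genes whose values across the 4 libraries lay nearest to each member were found by the Euclidean distance of log2(normalized count + 1), which uses the level as well as the difference and is not per length. For Mitf these were D3ZNV9_RAT at a distance of 0.104, Fmo2 at 0.959, Aff3 at 1.03, LOC363458 at 1.13 and Mpeg1 at 1.14. Among the nearest to Tfec were Siglec10 (0.121) and Lum (0.210). Zfp202, RGD1307704 and LOC100361114 lay within 0.0935 of Tfeb, and Rprd1b, Sppl2b and Flcn within 0.0929 of Tfe3. With 4 libraries in 2 clones, many genes can share such a profile, and the distances carry no test.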

How the data were processed

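RNA of 2 wtPC12 and 2 hrPC12 libraries had been prepared with the Illumina TruSeq v2 kit and sequenced on an Illumina instrument as paired ends. Alignment was to the build rn4, and the authors deposited raw read counts per gene, not normalized, as htseq-count writes them; the submitters' processing notes name TopHat2 2.0.4, HTSeq 0.5.3 and DESeq 1.9.12, and the strand setting is not given in the sources used here. A further table holds means, fold changes and p-values of the authors' own comparison and was not used. Reads on genes made up 37.9% to 41.3% of each library.

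Counts were normalized by TMM in edgeR 4.0.16 (R 4.3.3, limma 3.58.1). Genes were kept where each clone had a read and the mean over libraries was 5 normalized counts or more, as in the study, and were tested with edgeR's quasi-likelihood test (legacy option on, common dispersion 0.0745) in place of DESeq, with Benjamini-Hochberg adjustment over all 13726 tested genes. An exact permutation test of 2 against 2 libraries cannot go below p = 0.333 (2-sided), and none was run. On simulated counts of 13980 genes with 200 changed 8-fold, edgeR found 198 and DESeq2 1.42.0 found 199, each with 0 false calls. The changed genes were drawn only from those with higher mean counts, and every gene was given the same dispersion. Recovery of genes with few reads, or with unequal dispersions, was therefore not checked. Only DE genes were counted there, whether as found or as false. Rises and falls called by the adjusted p alone were not checked in this way. Changes smaller than 8-fold, such as those of Tfeb and Tfe3, were not simulated. A count of 0 was taken to allow up to 3 reads, which covers counting error only.

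The members and lists were chosen with earlier results of these data known. Genes named are the members, Rest, from each list the 2 highest and 2 lowest log2 FC among genes that passed 0.01 with at least 100 normalized counts and no overlap, a set of family regulators and proposed targets, the 3 neighbours on each side and the nearest profiles; others are marked as named after their values were seen. Fnip1, Lamp1, Sqstm1 and Acp5 were not analysed here. A few items covered by these choices are not reported here. Upstream sequences and gene order come from RefSeq (GRCr8), matched by symbol. Alternatives were RLE factors, library totals, every gene with a read, filterByExpr, DESeq2, each library left out, the legacy option off and a threshold of 0.05; the motifs of RE-1, the wider stretch around Tfec, and 0.05 with each library left out were added after the data were seen.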

Additional observations from a re-analysis of the deposited data

How the results depend on the processing

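No paired analysis was possible because the labels give the libraries of the clones no shared replicate numbers. Tfeb was at −1.05 with DESeq2 and −1.02 at an adjusted p under 0.05, both past the threshold, and Tfe3 (−0.67) passed only at 0.05. The bound for Mitf was 394-fold with RLE factors, 425-fold with library totals and 383 to 423-fold with 1 library left out. Rest, which misses 0.01 in the reported test, passed at 3.38 with RLE factors, 3.46 with library totals, 3.42 with every gene and at 0.05, 3.39 with DESeq2 and 3.41 with the legacy option off, and ran from 2.80 to 4.44 with 1 library left out. Of the 4 lysosome and autophagy lists, 8 genes rose with RLE factors, 10 with library totals, 15 with every gene, 21 with DESeq2 and 22 at 0.05, while 13 fell with DESeq2 and 17 at 0.05; with 1 library left out 0 to 11 rose and 0 to 6 fell, the 0 without wtPC12 replicate 2, where 64 had an unadjusted p under 0.05 in edgeR. Without hrPC12 replicate 2, 11 rose and 3 fell, and without wtPC12 replicate 1, 1 rose and 4 fell. Of all 13 lists, 31 rose with every gene, 40 with DESeq2 and 42 at 0.05, 35 fell with DESeq2 and 41 at 0.05, with 1 library left out 0 to 26 rose and 0 to 22 fell, and the median was 0.0237 with library totals. DE genes higher in hrPC12 were 1127 with every gene and 1088 at 0.05, and with 1 library left out 0 to 962 were higher and 0 to 859 lower. Directions turned for 4 of the genes named, none of which passed in the reported test: Fnip2 (RGD1562174), 0.46 in that test, between −0.13 and 1.37 with 1 library left out, Mcoln1 at 0.0237 with library totals and −0.17 to 0.0294 with 1 left out, Ctsb −0.0532 to 0.44, and Tcirg1 at −0.0293 with RLE factors, −0.0248 with DESeq2 and −0.12 to 0.12 with 1 left out. The cause of these changes was not tested beyond the settings themselves. Fits without 1 library leave a clone with a lone library, which is assumed to vary like the others. With 2 libraries per clone and 20975027 to 27246502 reads, differences between counts at or under 3 reads were not detectable.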
